A study of Mus musculus with 18 samples.

Results

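Wild-type (Hmgn1+/+) mouse liver labelled saline-injected, 12 weeks was compared with wild-type liver labelled 4 weeks, not injected. The comparison took 3 arrays per group from a series of 18, chosen by their titles, and covered all 45037 non-control probe sets of the 45101 on the Affymetrix Mouse430_2 array. All mice were male. The series also holds wild-type liver after a dose of 10 µg/g of the liver carcinogen N-nitrosodiethylamine (DEN), and the same conditions in Hmgn1-/- liver. DEN and saline were both injected at 4 weeks of age. The series text counts 12 weeks from the injection whereas the titles give 12 weeks without a starting point, so the age at collection of the injected mice is uncertain. The 2 genotypes descend from heterozygous crosses but were propagated as separate homozygous lines, and the labels give no strain and no time of day of collection. Age, the injection itself, the signal range of the arrays and a measure of RNA integrity, given below, differ together between the groups and cannot be told apart. Whether each array stands for a different mouse is not stated. The p-values cover only the scatter among arrays within groups, which may be technical. That scatter was estimated jointly over the 6 groups of the series, knockout and DEN arrays included.

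Between weaning and adulthood the mouse liver slows its growth, its hepatocytes finish their metabolic maturation, and in males the pulses of growth hormone that begin at puberty switch on a sex-biased set of genes. Growth hormone acts in hepatocytes through the kinase JAK2 and the transcription factor STAT5, which induces Igf1 and the feedback inhibitors of the SOCS family. Feeding and light also drive daily cycles in liver, in which the factors CLOCK and BMAL1 activate genes through E-box sequences and the output factors DBP, TEF and HLF act through D-box sequences.

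The values are microarray signals after quantile normalization, which gives every array the same distribution, and differences are fitted with limma on log2(signal + 16). This step was needed because the 6 saline arrays of the series stood apart: their highest deposited signal was 16720 to 21752 against 46967 to 60173 on the other 12, and their hybridization control CreX, a phage transcript spiked into each sample, was 3684 to 5121 against 17317 to 26436. Log2 signals correlated across probe sets with r of 0.968 to 0.974 within the 4-week group, 0.984 to 0.985 within the saline group and 0.969 to 0.976 between them. The 4-week replicate 2 had the highest Gapdh 3' to 5' ratio, 2.19, a sign of RNA degradation, against 1.19 to 1.33 on the saline arrays. The same ratio for Actb separated the groups, at 3.44 to 7.28 at 4 weeks and 3.03 to 3.07 with saline. The part of RNA quality in the differences was not tested. Core hepatocyte markers were bright, as the liver label requires: the summed signal of the 23 that were compared was 223495 to 224648 at 4 weeks and 219647 to 222293 with saline. Alb, which encodes serum albumin, had signals of 30893, 31871 and 31871 at 4 weeks and 29074, 29596 and 27795 with saline.

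With saline at 12 weeks, 676 probe sets were higher (1.5% of all probe sets) and 500 were lower (1.11%) at a limma adjusted p under 0.05, called "rose" and "fell" from here on. Of the 45037 probe sets, dim ones included, 6248 had an unadjusted p under 0.05 in limma. Counts of such p-values in the gene lists below stand beside this background. With each gene represented by its probe set of highest mean signal, and genes kept where that mean reached the 40th percentile, 381 of 12900 genes rose (2.95%) and 255 fell (1.98%). The changes were mostly small. The median was 0.54 in log2 among the genes that rose and -0.47 among those that fell, 27 genes rose by more than 1, and 3 fell by more than 1. In each of the 381 and 255 called genes the 3 saline arrays lay wholly above or wholly below the 3 at 4 weeks. Since the genes were called on these same arrays, this separation largely follows from the call and adds no support to it.

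**Figure D1:**
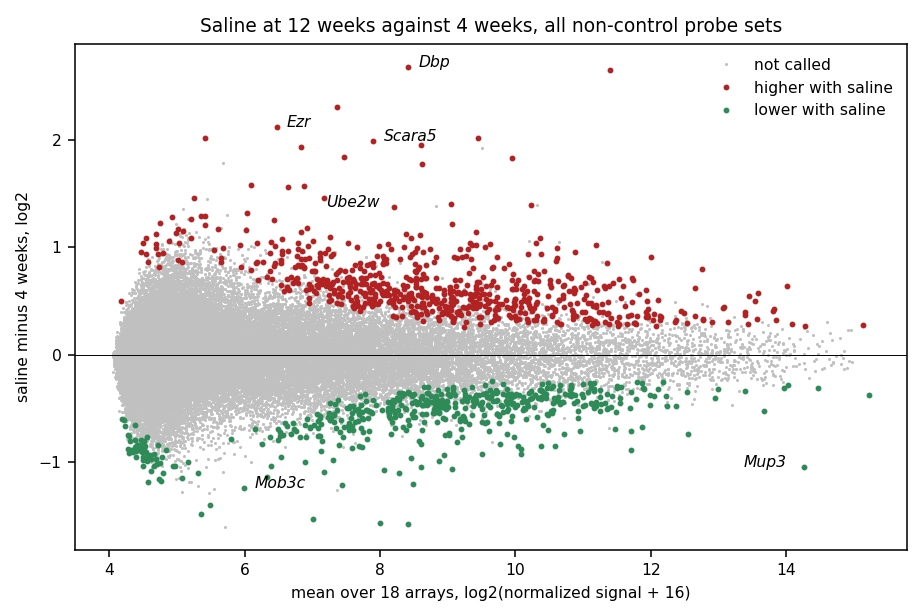
Each point is 1 of 45037 probe sets, with its mean log2(normalized signal + 16) over 18 arrays on the x axis and its saline minus 4 weeks log2 difference on the y axis. The 676 higher probe sets are red and the 500 lower ones green, 6 named genes are marked, and Dbp has the largest rise among the genes, 2.68.

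Clock output genes held the largest rise. Dbp, a transcription factor that acts through D-box sequences at the output of the liver clock, had signals of 50.1, 61.9 and 69.9 at 4 weeks and 497, 541 and 396 with saline. All 3 saline arrays were far above the 4-week arrays, a rise of 2.68 (SE 0.42, adjusted p 0.00134) in log2, and another Dbp probe set rose by 2.31 (adjusted p 0.00245). The DEN arrays were higher still, at 622, 1374 and 1471, and differed from 4 weeks by 3.85 (adjusted p 0.000174). Tef, a relative of DBP in the same family, rose by 0.64 (SE 0.16, adjusted p 0.0336), from 392, 463 and 440.1 to 829.6, 622 and 603, and its other, dim probe set differed by 0.63 (adjusted p 0.24). Nr1d2, which encodes the clock repressor REV-ERB beta, rose by 0.51 (SE 0.11, adjusted p 0.0144), from 1142, 1205 and 1170.3 to 1867, 1632 and 1545. The saline and 4-week arrays did not overlap in either gene. Of the 19 compared members of a list of clock genes and their outputs, these 3 rose and none fell, beside 2.95% and 1.98% of all genes. The list median was 0.31 against 0.02 over all genes, and 16 members did not pass. A median of this size also occurred without calls, at 0.33 in 12 markers of muscle, adipose tissue and kidney. Among those that did not pass, Arntl, which encodes BMAL1, differed by -0.31 (95% interval -0.74 to 0.13, adjusted p 0.582). Nr1d1, which encodes REV-ERB alpha, differed by 0.41 (95% interval -0.35 to 1.17, adjusted p 0.704) and Per2, a clock inhibitor, by 0.20 (95% interval -0.40 to 0.79, adjusted p 0.846). The interval of Nr1d1 still includes a change of more than 1 in log2. With DEN against the same 4-week arrays 5 clock genes rose and 3 fell, beside 1.45% and 1.59% of all genes. In knockout livers, saline against 4 weeks, none of the 19 passed, beside 3.15% higher and 3.19% lower over all genes. Tef lost its call without 5 of the 6 arrays in turn (highest adjusted p 0.216) and Nr1d2 without 2 of them (0.0998), whereas Dbp kept it in all 6 (highest adjusted p 0.0109).

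The sequences around the annotated starts of these 3 genes are shown because clock factors are known to bind E-box, D-box and ROR sites in promoters. Each RefSeq window (GRCm38.p6) holds 250 bases before the start and 50 after it, 5′ to 3′ on the strand of the gene, with motif matches in capitals. The motifs searched on both strands were the E-box CACGTG, present in 7.15% of 32851 such windows, the D-box TTANGTAA (2.32%), the ROR half-site AGGTCA (16.3%) and the STAT site TTCNNNGAA (8.30%). Tef has 2 annotated windows.
Dbp (chr7:45704997-45705296, plus strand): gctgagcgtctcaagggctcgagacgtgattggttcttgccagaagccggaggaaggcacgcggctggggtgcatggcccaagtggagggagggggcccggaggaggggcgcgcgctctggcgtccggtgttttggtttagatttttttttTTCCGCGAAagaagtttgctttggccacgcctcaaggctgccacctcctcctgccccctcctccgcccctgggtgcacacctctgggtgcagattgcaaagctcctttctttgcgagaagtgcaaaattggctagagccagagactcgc
Tef window 1 (chr15:81802423-81802722, plus strand): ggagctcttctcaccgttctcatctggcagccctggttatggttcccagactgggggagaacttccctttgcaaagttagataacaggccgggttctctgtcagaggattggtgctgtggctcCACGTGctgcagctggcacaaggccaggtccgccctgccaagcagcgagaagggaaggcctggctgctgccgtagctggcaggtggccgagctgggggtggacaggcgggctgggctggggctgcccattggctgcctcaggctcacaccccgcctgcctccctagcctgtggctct
Tef window 2 (chr15:81811164-81811463, plus strand): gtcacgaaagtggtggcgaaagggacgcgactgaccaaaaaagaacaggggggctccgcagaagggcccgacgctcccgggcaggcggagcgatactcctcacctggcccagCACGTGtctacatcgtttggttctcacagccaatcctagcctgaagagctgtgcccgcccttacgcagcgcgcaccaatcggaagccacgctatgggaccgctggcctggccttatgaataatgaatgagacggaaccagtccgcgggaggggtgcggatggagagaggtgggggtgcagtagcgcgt
Nr1d2 (chr14:18239057-18239356, minus strand): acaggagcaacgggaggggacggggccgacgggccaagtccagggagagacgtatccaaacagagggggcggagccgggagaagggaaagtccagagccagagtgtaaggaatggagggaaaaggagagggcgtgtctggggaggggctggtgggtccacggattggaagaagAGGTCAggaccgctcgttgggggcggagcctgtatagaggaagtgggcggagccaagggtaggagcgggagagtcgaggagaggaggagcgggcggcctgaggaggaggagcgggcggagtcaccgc
Each Tef window holds an E-box, which begins -127 and -138 bases from the start. The Nr1d2 window holds a ROR half-site at -77, and the Dbp window holds a STAT site at -99 and no E-box or D-box. These matches describe the letters only, and a motif may lie outside a window.

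Genes of the growth hormone axis changed at 2 points. Onecut1, which encodes the hepatocyte transcription factor HNF6, a known growth hormone target in rodent liver, rose by 1.06 (SE 0.23, adjusted p 0.0144), from 55, 66.8 and 43.8 to 159, 142 and 100.3. A second Onecut1 probe set rose by 1.56 (adjusted p 0.00609). Cish, an inhibitor of cytokine receptor signalling that STAT5 induces, rose by 1.04 (SE 0.26, adjusted p 0.0335), from 83.6, 98.9 and 83.8 to 211, 271 and 138. All saline arrays were above all 4-week arrays in both genes, but the calls were lost without 3 of the 6 arrays for Onecut1 (highest adjusted p 0.0928) and without 5 for Cish (0.187). Of the 19 compared members of the axis, 2 rose and none fell, beside 2.95% and 1.98% of all genes, and the median was 0.13. Socs2, a second feedback inhibitor, differed by 1.03 (95% interval 0.29 to 1.77, adjusted p 0.151) and did not pass. The receptor gene Ghr differed by 0.17 (95% interval -0.02 to 0.36, adjusted p 0.42), and Stat5b by -0.42 (95% interval -0.66 to -0.18, adjusted p 0.0566). Igf1, the main growth factor released by liver under growth hormone, gave readings that depended on the probe set. Its brightest probe set had signals of 4167, 3387 and 3955 at 4 weeks and 4465, 4201 and 4504 with saline, and its difference of 0.20 (adjusted p 0.197) did not pass, while among the other probe sets 2 rose, by 0.32 (adjusted p 0.0335) and 0.48 (adjusted p 0.0015), and the other differed by 0.06 (adjusted p 0.86).

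The Cish window is shown because it holds a pair of STAT sites, which begin at positions +1 and +12, where +1 is the start base.
Cish (chr9:107296409-107296708, plus strand): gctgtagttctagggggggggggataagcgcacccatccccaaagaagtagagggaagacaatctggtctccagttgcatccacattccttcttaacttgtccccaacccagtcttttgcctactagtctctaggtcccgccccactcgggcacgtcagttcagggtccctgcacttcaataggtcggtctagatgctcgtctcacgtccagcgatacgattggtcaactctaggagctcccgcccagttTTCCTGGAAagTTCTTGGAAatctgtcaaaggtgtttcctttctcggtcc
The Onecut1 window holds an E-box at -232 and no STAT site.

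Among 17 compared genes known to be higher in adult male than female mouse liver, 2 rose and 1 fell, beside 2.95% and 1.98% of all genes. The list median of 0.10 was -0.09 with the deposited values. Ugt2b38, a glucuronosyltransferase of the UGT2B family, rose by 0.99 (SE 0.16, adjusted p 0.00171), from 233, 187 and 242 to 598, 416 and 365, without overlap, and kept its call without any 1 array (highest adjusted p 0.0159). C8a, a complement component, rose by 0.44 (SE 0.09, adjusted p 0.0137), from 6772, 7438 and 6738 to 10004, 9641 and 8789, but its difference was -0.085 with the deposited values. Mup3, a major urinary protein, fell by 1.05 (SE 0.12, adjusted p 7.64e-05), from 24531, 27462 and 27462 to 12983, 12127 and 13149. The probe set for Mup3 has a name in _x_at, which marks probes shared with other transcripts, and the Mup genes are near-identical copies. A second Mup3 probe set, also in _x_at, differed in the other direction, by 0.87 (adjusted p 0.0769), so the fall is uncertain for any single Mup gene. Other well-known male-biased genes, picked outside the rule for named genes and with their values known, did not pass. Cyp7b1, an oxysterol hydroxylase, differed by 0.47 (95% interval 0.16 to 0.77, adjusted p 0.106), and Hsd3b5, a steroid-metabolizing enzyme, by 0.15 (95% interval -0.11 to 0.41, adjusted p 0.677). Cyp2d9 differed by -0.11 (95% interval -0.32 to 0.10, adjusted p 0.702) and Elovl3, a fatty acid elongase, by -0.06 (95% interval -0.34 to 0.22, adjusted p 0.904). Also not passing were Nudt7 at 0.35 (adjusted p 0.0961), Serpina12 at 0.37 (adjusted p 0.193) and Susd4 at -0.47 (adjusted p 0.0611). Of the 17 male-biased genes 7 had an unadjusted p under 0.05 in limma, called ones included. Of 18 female-biased genes none passed in limma, and 2 had an unadjusted p under 0.05. Both counts stand beside 6248 of all 45037 probe sets.

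**Figure D2:**
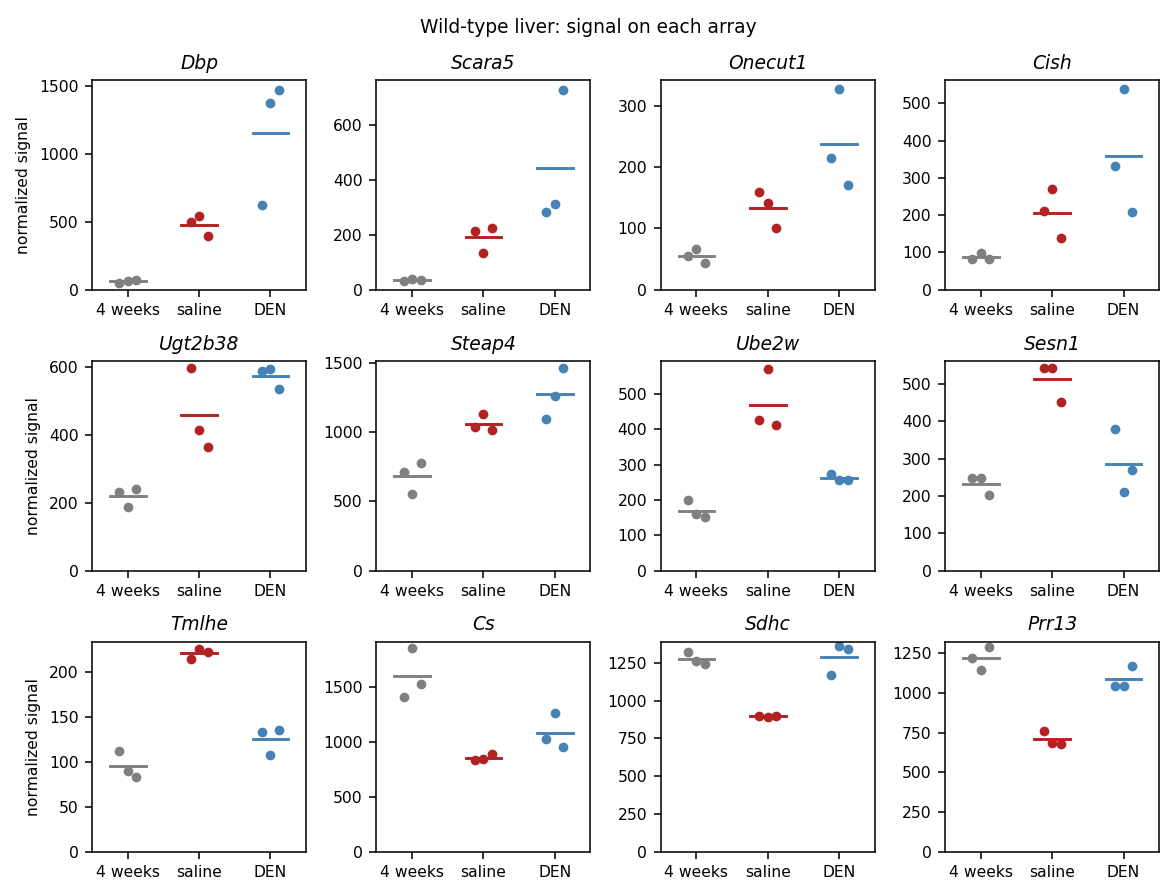
Normalized signal (y axis, linear, from 0) on each of the 3 wild-type arrays at 4 weeks (grey), with saline (red) and with DEN (blue) for 12 named genes, with horizontal lines at the means. In Dbp to Steap4 the DEN arrays reach or pass the saline arrays, whereas in Ube2w, Sesn1, Tmlhe, Sdhc and Prr13 they lie nearer the 4-week arrays.

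Single genes of iron handling and of the acute phase also rose. Scara5, a scavenger receptor that takes up ferritin, had signals of 30.9, 37.7 and 36.6 at 4 weeks and 215, 134 and 223 with saline, a rise of 1.99 (SE 0.27, adjusted p 0.000312). With DEN it reached 284, 314 and 728. Another Scara5 probe set differed by -0.11 (adjusted p 0.918) and did not follow. Fth1, the ferritin heavy chain, rose by 0.28 (adjusted p 0.0333) after quantile normalization but fell by 0.65 with the deposited values, and its other probe set differed by -0.02 (adjusted p 0.956). Urod and Blvrb, enzymes of heme synthesis and bilirubin formation, fell by 0.31 (adjusted p 0.0141) and fell by 0.26 (adjusted p 0.0203). This made 2 rises and 2 falls among 26 genes of heme and iron, beside 2.95% and 1.98% of all genes. The Urod probe set is in _x_at, and the other Urod probe set differed by 0.10 (adjusted p 0.743). Saa1, an acute phase apolipoprotein, rose by 0.81 (SE 0.17, adjusted p 0.011), from 516, 557 and 479 to 943, 988 and 828, and its other probe set rose by 0.61 (adjusted p 0.0387). Steap4, a metalloreductase induced by inflammation, rose by 0.63 (SE 0.12, adjusted p 0.00421), from 715, 557 and 778 to 1036, 1131 and 1017, while its other, dimmer probe set differed by 0.12 (adjusted p 0.859). None of the other 23 compared acute phase genes passed, and the list median was 0.03. Slc25a30, a mitochondrial carrier, rose by 1.40 (SE 0.30, adjusted p 0.0138), from 279.6, 185 and 238 to 707, 862 and 422, and lost the call without 3 of the 6 arrays (highest adjusted p 0.0905). Its other probe sets differed by 0.86 (adjusted p 0.215) and 0.96 (adjusted p 0.207).

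In several of the largest rises the DEN signals were nearer those at 4 weeks than those with saline. These genes were picked by their saline values, which tilts saline minus DEN away from 0. Its values and p-values for named genes are therefore descriptive, here and below. Ube2w, a ubiquitin-conjugating enzyme that modifies protein N-termini, had signals of 199, 160.3 and 151 at 4 weeks, 425, 572 and 412 with saline and 273, 257 and 256 with DEN. It rose by 1.38 (SE 0.15, adjusted p 6.73e-05) against 4 weeks, and saline exceeded DEN by 0.79 (adjusted p 0.0116). Sesn1, a sestrin induced by p53 that restrains mTORC1, had signals of 249, 247 and 203 at 4 weeks, 543, 543 and 452 with saline and 379, 211 and 270.3 with DEN. It rose by 1.09 (SE 0.15, adjusted p 0.000515), and saline exceeded DEN by 0.84 (adjusted p 0.00889). Tmlhe, the enzyme that starts carnitine synthesis from trimethyllysine, rose by 1.10 (SE 0.17, adjusted p 0.00108), from 112, 90.2 and 83.3 to 214, 226 and 222, with DEN at 133, 107 and 136. Spry4, an inhibitor of receptor tyrosine kinase signals, rose by 1.32 (SE 0.24, adjusted p 0.00387), from 18.7, 32.9 and 36.3 to 118, 107 and 68.3, with DEN at 38.7, 39.9 and 35.1. Hectd2os, a transcript annotated opposite to Hectd2, rose by 1.12 (SE 0.20, adjusted p 0.00408), from 238, 216 and 261 to 579, 578 and 457, and 1 of its 3 DEN arrays was within the saline range (DEN 472, 248 and 236). Each of these 5 genes kept its call whichever 1 array was left out. The other probe set of Ube2w differed by 0.33 (adjusted p 0.168), and those of Sesn1 by 0.06 (adjusted p 0.919) and 0.41 (adjusted p 0.271). Those of Tmlhe gave 0.95 (adjusted p 0.00862), -0.01 (adjusted p 0.996) and -0.20 (adjusted p 0.81), and that of Spry4 gave -0.06 (adjusted p 0.963). Ezr, which links the membrane to actin, rose by 2.12 (SE 0.25, adjusted p 9.74e-05) through a probe set in _x_at, from 15.4, 37.6 and 39.5 to 183, 179.9 and 182. With DEN its signals were 68.6, 63.9 and 90.4, a difference from 4 weeks of 0.98 (adjusted p 0.0494). Its other probe set differed by -0.01 (adjusted p 0.993). Over all genes, 219 were higher (1.7%) and 148 lower (1.15%) with saline than with DEN, a contrast added after the data were seen.

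The remaining large rises started near the floor of the array. Treml1, a platelet receptor, went from 5.49, 5.29 and 3.98 to 28.9, 36 and 42. Blk, a kinase of B cells, went from 4.47, 4.52 and 5.96 to 33.4, 27.6 and 32.6. Jph2, a junctional protein of muscle, went from 16.5, 7.04 and 11.5 to 56.2, 36.7 and 51.1. Ccl4, a chemokine, went from 20.6, 10.5 and 8.41 to 56.2, 42.6 and 47.7. These 4 genes rose by 1.17 to 1.30 in log2, sizes that depend on the 16 added to each signal, and each lost its call without 3 or more of the 6 arrays. The other Jph2 probe set differed by 0.01 (adjusted p 0.996). Gm4788 rose by 1.26 (SE 0.25, adjusted p 0.00737), from 66.1, 20.8 and 36.3 to 105, 122 and 114, and kept its call.

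Among the falls, that of Cs was seen in more than 1 probe set. Cs, citrate synthase of the tricarboxylic acid cycle, fell by 0.88 (SE 0.11, adjusted p 0.000155), from 1402, 1855 and 1526 to 830.3, 846 and 886. A second Cs probe set fell by 0.37 (adjusted p 0.0181) and the other differed by -0.30 (adjusted p 0.0589). Pink1, a kinase that marks damaged mitochondria, fell by 0.86 (SE 0.11, adjusted p 0.00025), from 1549.8, 2319 and 1588 to 968, 995 and 979, while a second, equally bright probe set differed by -0.31 (adjusted p 0.0966). Sdhc, a membrane subunit of succinate dehydrogenase, fell by 0.50 (SE 0.07, adjusted p 0.000658), from 1323, 1260.0 and 1242 to 899, 892 and 896, whereas the DEN arrays, at 1166, 1363 and 1339, overlapped the 4-week arrays and exceeded saline, saline minus DEN being -0.51 (adjusted p 0.00151). The other Sdhc probe set, in _x_at, differed in the other direction, by 0.17 (adjusted p 0.765). In contrast Cycs, Uqcrfs1 and Cyc1, which carry electrons through complex III and to complex IV, rose by 0.39 (adjusted p 0.00659), 0.29 (adjusted p 0.0197) and 0.27 (adjusted p 0.0346). Other Cycs probe sets differed by 0.28 (adjusted p 0.153), -0.16 (adjusted p 0.386) and 0.12 (adjusted p 0.899). The rises of Cycs and Cyc1 became -0.28 and -0.033 with the deposited values. Over 29 genes of oxidative phosphorylation, 3 rose and 1 fell, beside 2.95% and 1.98% of all genes. The median was 0.03, or -0.28 with the deposited values.

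Other large falls had varied roles. Preb, which activates the SAR1 GTPase at the endoplasmic reticulum, fell by 0.83 (SE 0.17, adjusted p 0.0104) through a probe set in _x_at, from 1149, 1181 and 1122 to 632, 643 and 639.9, and its other probe sets differed by -0.37 (adjusted p 0.0568) and -0.21 (adjusted p 0.715). Mbd3, a subunit of the NuRD chromatin remodeller, fell by 0.81 (SE 0.13, adjusted p 0.00197), from 159.8, 187 and 185 to 90.4, 101 and 91.4. B4galnt1, an enzyme of ganglioside synthesis, fell by 0.78 (SE 0.13, adjusted p 0.00164), from 321, 259 and 265 to 153, 148 and 169, while its other, dim probe set differed by 0.02 (adjusted p 0.986). Prr13 fell by 0.77 (SE 0.11, adjusted p 0.000353), from 1223, 1147 and 1290.3 to 759, 686 and 681, and Csnk1g2, a casein kinase, fell by 0.90 (SE 0.17, adjusted p 0.00546), from 167, 201 and 166 to 74.9, 101 and 88.4. Tmie, a membrane protein known from hair cells, fell by 0.87 (SE 0.15, adjusted p 0.00202) through a probe set in _x_at, from 312, 408 and 316 to 173, 204 and 165, and a second probe set, in plain _at, fell by 0.99 (adjusted p 0.0336), while a dim one differed by -0.11 (adjusted p 0.957). These 6 genes kept their calls whichever 1 array was left out. S100a10, a partner of annexin A2, fell by 0.89 (SE 0.18, adjusted p 0.0101) through a probe set in _x_at, from 4538, 6347 and 4905 to 2813, 2742 and 2862, and lost its call without 1 of the 6 arrays. Its other probe sets differed by -0.20 (adjusted p 0.496) and 0.06 (adjusted p 0.952). Mob3c went from 83, 81.1 and 40.7 to 22.3, 13.4 and 20.2, near the floor with saline, so that its difference of -1.25 (SE 0.31, adjusted p 0.0362) depends in size on the 16 added. It lost its call without 5 arrays (highest adjusted p 0.15), and its other probe set differed by -0.01 (adjusted p 0.99). Rpl27a, a ribosomal protein gene, went from 258, 532 and 453 to 180.0, 142 and 213, and Dock6, an activator of Rac and Cdc42, from 137, 149.5 and 137 to 62.4, 80.2 and 87. Their differences were -1.10 (adjusted p 0.0103) and -0.77 (adjusted p 0.0232), that of Frg1 was -0.77 (adjusted p 0.0232), and they lost their calls without 3, 4 and 4 arrays. Pltp, the phospholipid transfer protein of plasma lipoproteins, fell by 0.86 (adjusted p 0.0473) and lost its call in all 6, and its other probe set differed by -0.18 (adjusted p 0.855).

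The metabolic lists are given beside the 2.95% of all genes that rose and the 1.98% that fell. Their counts of an unadjusted p under 0.05 in limma stand beside 6248 of all 45037 probe sets. Of 28 genes of the urea cycle and amino acid breakdown, 3 fell and none rose. Cbs, which makes cystathionine from homocysteine, fell by 0.50 (SE 0.07, adjusted p 0.000543), from 2942, 3317 and 3276 to 2081, 2269.5 and 2389, and its other probe set fell by 0.71 (adjusted p 0.0012). Nags, whose product activates the entry enzyme of the urea cycle, fell by 0.49 (SE 0.10, adjusted p 0.00731), from 491, 510.1 and 592 to 384, 359 and 373. Bckdha, a subunit of branched-chain ketoacid dehydrogenase, fell by 0.43 (adjusted p 0.0195). Among 20 genes of cholesterol synthesis, Pmvk, phosphomevalonate kinase, fell by 0.73 (SE 0.17, adjusted p 0.02), from 845, 862 and 829.9 to 435, 488 and 601, none rose, and the median was -0.24. With DEN against the same 4-week arrays 9 of these 20 genes fell and none rose, beside 1.59% and 1.45% of all genes. Among 26 bile acid genes Akr1d1, the steroid 5 beta-reductase, rose by 0.59 (SE 0.14, adjusted p 0.0214), from 1587, 1634 and 1527 to 2407, 2535 and 2232, and Amacr, a racemase, by 0.29 (adjusted p 0.0352). The other Akr1d1 probe set differed by 0.22 (adjusted p 0.359). Cyp7a1, which catalyses the limiting step from cholesterol to bile acids, differed by -0.39 (95% interval -0.88 to 0.10, adjusted p 0.509), and its other probe set by -0.55 (adjusted p 0.562). Of 27 genes of fatty acid and triglyceride synthesis none passed in limma and 11 had an unadjusted p under 0.05, with a median of -0.20. Of 21 genes of glucose metabolism none passed, 4 had an unadjusted p under 0.05, and the median was -0.17. Among 29 genes of fatty acid oxidation Acadm and Fabp1 rose, but both had a negative difference with the deposited values, -0.12 and -1.14. Fabp1 took the same signal on all 3 arrays of a group, since it held a fixed top rank, and its size is therefore a matter of rank only. The other Fabp1 probe set differed by -0.07 (adjusted p 0.759). Nr3c1, the glucocorticoid receptor gene, rose by 0.48 (SE 0.08, adjusted p 0.00204), from 695, 554 and 621 to 860.3, 881 and 871, and a second probe set rose by 0.38 (adjusted p 0.0354). Another, as bright as the second, differed in the other direction, by -0.19 (adjusted p 0.542), and 3 dim ones differed by -0.08 (adjusted p 0.938), 0.07 (adjusted p 0.95) and -0.04 (adjusted p 0.981).

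Markers of cell division and of single cell types are given beside the same shares over all genes and the same background of unadjusted p-values. Of 29 cell cycle genes Mcm4, a subunit of the replicative helicase, rose by 0.62 (adjusted p 0.0278) through a probe set in _x_at, its other probe set differed by 0.14 (adjusted p 0.84), and none fell. The proliferation marker Mki67 was near the floor in both groups, at 12.3, 20.8 and 20.5 at 4 weeks and 24.7, 16 and 24.9 with saline, so a change would be hard to detect. Afp, the fetal albumin relative, was low in both groups, at 30.7, 42.6 and 33.7 at 4 weeks and 36.5, 52 and 38.6 with saline, with overlap. Of 15 compared fetal liver genes none passed and 1 had an unadjusted p under 0.05. Of 29 matrix genes none passed and 2 had an unadjusted p under 0.05, and of 23 macrophage markers none passed and 5 had such a p. Among 26 endothelial markers Ptprb, a vascular phosphatase, fell by 0.37 (adjusted p 0.0173), with other probe sets at -0.20 (adjusted p 0.295) and -0.31 (adjusted p 0.754). The other 25 did not pass, 19 of the 26 differed below 0, and the median was -0.11. The summed signal of the list was 8249 to 8452 at 4 weeks and 7509 to 7572 with saline. That of the matrix list, with no called gene, did not overlap either, at 14480 to 14840 and 13028 to 14193. Among 9 bile duct markers Aqp1, a water channel also found in endothelium, fell by 0.38 (adjusted p 0.0139), from 1074, 1354 and 1222 to 927, 935 and 924. The other 8 did not pass. The summed signal was 1544 to 1804 and 1338 to 1392, but most of it was Aqp1, so the sum does not show a change across the list. Alas2, the erythroid enzyme of heme synthesis, fell by 0.42 (adjusted p 0.0306), from 670, 784 and 699 to 610, 506 and 483. The other 7 of 8 erythroid markers did not pass. Their summed signal with Alas2 was 1293 to 1508 and 1113 to 1266, but Alas2 was its largest part, so this sum does not show a change across the list either. In bulk liver, fewer cells of a type and less RNA per cell cannot be told apart. The part of such cells in other results was not tested. Among 19 stellate cell markers Colec11, a collectin, rose by 0.55 (SE 0.09, adjusted p 0.00202), from 1238, 1311 and 1264 to 1778, 1851 and 1981, and Ecm1 fell by 0.36 (adjusted p 0.0351). The other Colec11 probe set differed in the other direction, by -0.18 (adjusted p 0.704). The brightest Hmgn1 probe set, in _x_at, read 5812, 7261 and 6107 at 4 weeks and 6615, 6334 and 6116 with saline. It differed by -0.00 (95% interval -0.19 to 0.18, adjusted p 0.995), and the other Hmgn1 probe sets by 0.10 (adjusted p 0.622) and 0.16 (adjusted p 0.435). The _x_at probe set read as high on the knockout arrays, so its value does not show that Hmgn1 was unchanged.

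Over all 40 lists, 26 of 780 compared genes rose (3.33%) and 20 fell (2.56%), close to the 2.95% and 1.98% of all genes. In 15 lists no member passed, and list medians ran from -0.24 for cholesterol synthesis to 0.33 for markers of muscle, adipose tissue and kidney. The normalization moved several list medians. The median of 20 ribosomal protein genes was -0.03 after quantile normalization and -0.44 with the deposited values, and that of 26 cytochrome P450 genes changed sign, from 0.09 to -0.26. The medians were -0.06 and -0.40 for 23 hepatocyte markers and -0.13 and -0.47 for 28 amino acid and urea cycle genes.

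**Figure D3:**
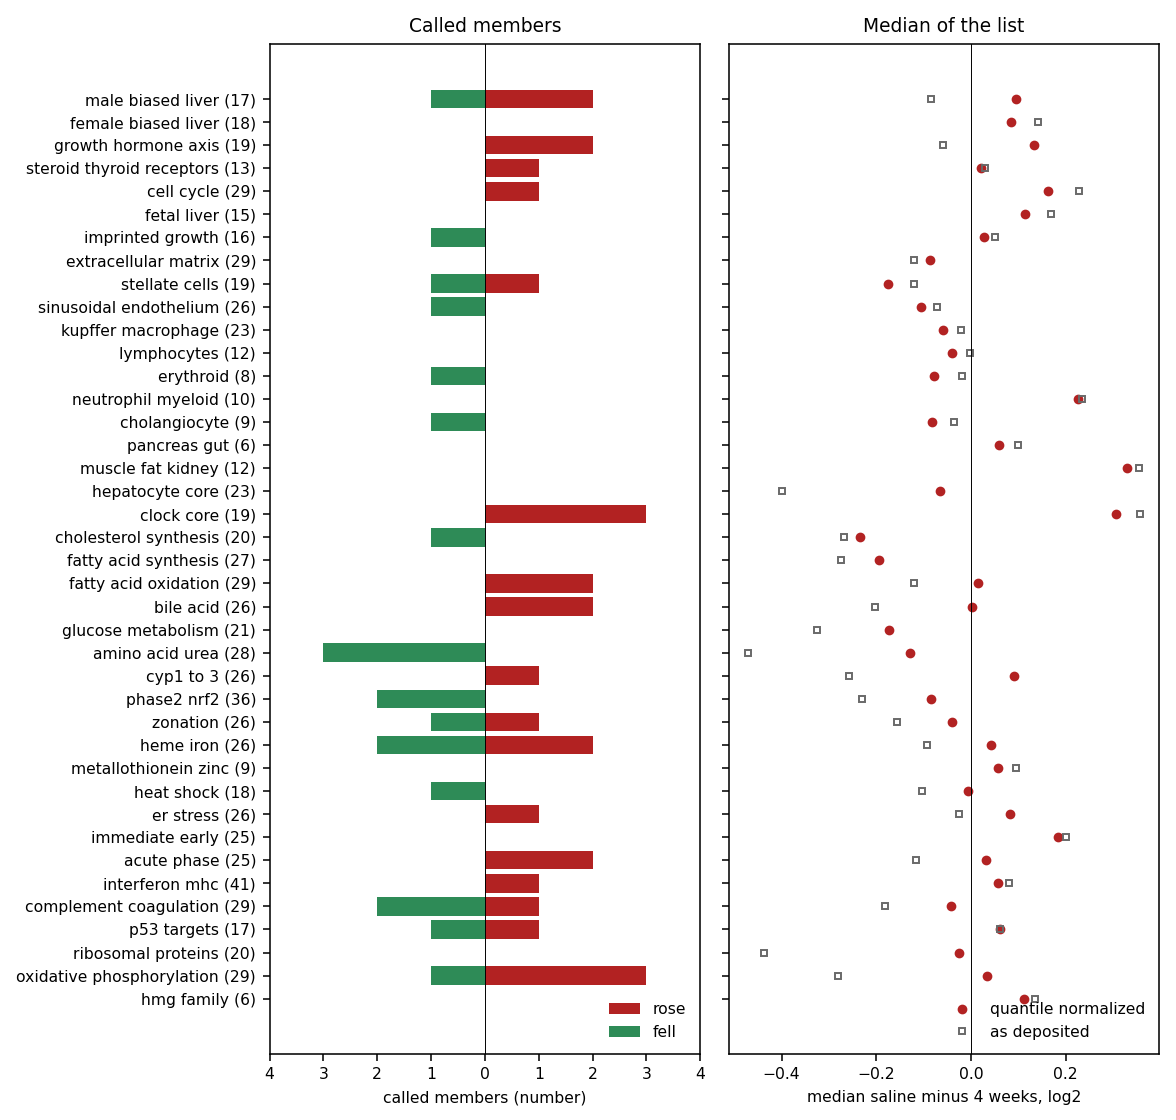
Left, number of members that rose (red) or fell (green) in each of 40 gene lists, with the number compared in parentheses. Right, the median saline minus 4 weeks log2 difference of each list after quantile normalization (red points) and with the deposited values (open squares); the clock list has 3 rises and a median of 0.31, and the hepatocyte median moves from -0.06 to -0.40.

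The same contrast in Hmgn1-/- liver used other arrays, which share the difference between saline arrays and the rest. The Hmgn1 probe set in _x_at had signals of 6579, 6389 and 6276 at 4 weeks and 6579, 6264 and 5927 with saline on the arrays labelled knockout, within the wild-type range. Its probes may be shared with other transcripts and the deleted segment is not described, so this probe set does not test the genotype. There 406 genes were higher (3.15%) and 411 lower (3.19%). Of the 381 genes that rose in wild type, 377 were higher in the knockout too (99.0%) and 222 were called, which is 58.3% of the wild-type calls and 54.7% of the knockout calls. Of the 255 that fell, 249 were lower in the knockout (97.6%) and 151 were called, 59.2% and 36.7% of the 2 lists. None was called in the opposite direction. Median differences over these genes were 0.54 in wild type and 0.45 in knockout for rises, and -0.47 and -0.40 for falls. The genes were called on the wild-type contrast, which favours larger values there. Ube2w rose by 1.41 (adjusted p 2.30e-05) in the knockout, Tmlhe by 1.16 (adjusted p 0.000443), Sesn1 by 0.97 (adjusted p 0.00105) and Hectd2os by 1.71 (adjusted p 5.06e-05). The knockout difference was -0.88 (adjusted p 6.04e-05) for Prr13, -0.69 (adjusted p 2.25e-05) for Sdhc, -0.65 (adjusted p 2.38e-05) for Cbs and -1.16 (adjusted p 0.000452) for Preb.

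A test of the difference between the genotypes called 1 probe set (0.00222%), that of Scara5, while 1717 had an unadjusted p under 0.05. In the knockout Scara5 went from 503, 567 and 496 to 371, 308 and 317, a difference of -0.63 (adjusted p 0.248), and the responses differed by 2.62 (SE 0.38, adjusted p 0.0468). With each of the 12 arrays left out in turn this call was kept in 1 fit, that without wild-type saline replicate 2 (adjusted p 0.0256), and lost in the others. Dbp differed by 0.80 (adjusted p 0.389) in the knockout, from 186, 189 and 176 to 181, 382 and 517, and its responses differed by 1.89 (adjusted p 1), which did not pass. Cyp7a1 rose by 1.19 (adjusted p 0.00589) in the knockout, with a difference of responses of -1.58 (adjusted p 0.915). Tyrobp, an adaptor of myeloid cells, rose by 0.88 (adjusted p 0.00189) there and differed by -0.34 (adjusted p 0.309) in wild type, with a difference of responses of -1.22 (adjusted p 0.316). Ugt2b38, which rose in wild type, differed by 0.14 (adjusted p 0.761) in the knockout, and its responses differed by 0.84 (adjusted p 1). Its knockout signals were 445, 431 and 386 at 4 weeks and 416, 496 and 487 with saline. At 4 weeks they were thus already above the wild-type signals of 233, 187 and 242.

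Wild-type DEN arrays carry the same age label as the saline arrays and the signal range of the 4-week arrays. Against the same 4-week arrays 187 genes were higher with DEN (1.45%) and 205 lower (1.59%). Since both contrasts use the 4-week arrays, their values are given side by side without a test of agreement. Genes that rose with saline had a median difference of 0.54 with saline and 0.24 with DEN, and those that fell -0.47 and -0.22. Calling the genes on the saline contrast favours larger values with saline. With DEN the difference from 4 weeks was 3.04 (adjusted p 1.67e-05) for Scara5, 1.80 (adjusted p 0.000412) for Onecut1 and 1.75 (adjusted p 0.00151) for Cish. It was 1.32 (adjusted p 0.000312) for Ugt2b38, 1.03 (adjusted p 0.0019) for Tef and 0.65 (adjusted p 0.00428) for Nr1d2. Among falls, Tmie differed by -1.09 (adjusted p 0.00058), Pmvk by -0.89 (adjusted p 0.0089), Pltp by -1.15 (adjusted p 0.0131) and Dock6 by -1.27 (adjusted p 0.00109). By contrast the DEN difference was 0.35 (adjusted p 0.35) for Tmlhe, -0.08 (adjusted p 0.893) for Preb, -0.15 (adjusted p 0.633) for B4galnt1 and -0.17 (adjusted p 0.501) for Prr13. For these 4 genes saline minus DEN was 0.75 (adjusted p 0.0274), -0.76 (adjusted p 0.0274), -0.63 (adjusted p 0.0154) and -0.60 (adjusted p 0.00621).

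**Figure D4:**
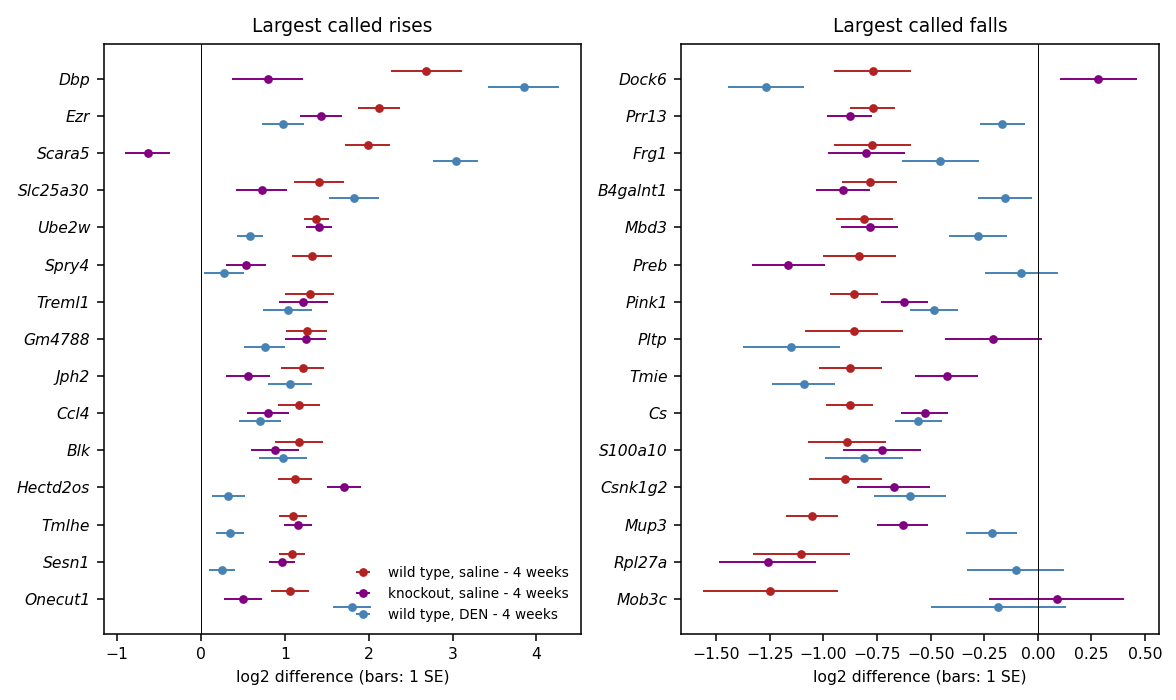
Log2 differences (x axis, bars 1 SE) of the 15 largest called rises (left) and 15 largest called falls (right) in wild type with saline against 4 weeks (red), with the knockout contrast (purple) and wild-type DEN against 4 weeks (blue) beside them. Dbp, Scara5 and Onecut1 have larger differences with DEN than with saline, whereas Ube2w, Tmlhe, Prr13 and Preb have knockout values near or beyond the wild-type ones and DEN values nearer 0.

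The kind of probe set moved with the calls. Among probe sets at or above the 40th percentile of mean signal, 11.5% of those with names in _x_at were called with saline, 6.95% in _s_at, 5.56% in _a_at and 2.97% of the plain _at class, which is designed to be unique to a transcript. With DEN against 4 weeks the shares were 3.83%, 3.78%, 3.99% and 2.47%. Of the 381 genes that rose, 276 had another probe set, which was higher in 177 (64.1%), rose in 31 and fell in 3. Of the 255 that fell, 131 had another probe set, which was lower in 83 (63.4%), fell in 10 and rose in 1. The share called also differed by brightness. It was 0.382% under a mean log2 signal of 5, 0.247% from 5 to 6, 3.04% from 6 to 8, 10.4% from 8 to 10, 15.3% from 10 to 12 and 8.01% at 12 and over. The part of probe cross-hybridization in the calls was not tested.

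**Figure D5:**
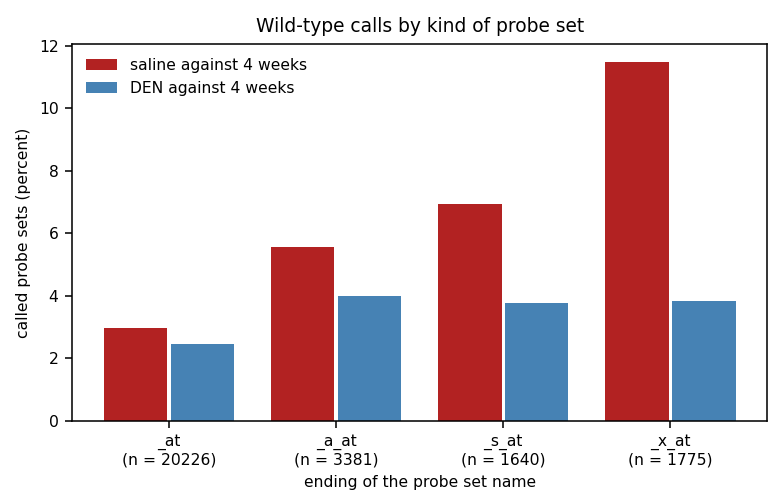
Percent of probe sets called in wild type (y axis, from 0) by the ending of the probe set name (x axis, with the number at or above the 40th percentile of signal), for saline against 4 weeks (red) and DEN against 4 weeks (blue). The saline share is highest for _x_at, 11.5%, and lowest for _at, 2.97%.

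The number of probe sets that passed depended on which array was left out. Without the 4-week replicate 1, 652 were higher and 545 lower, near the 676 and 500 of the full fit. Without the 4-week replicate 2, 385 were higher and 276 lower, and without the 4-week replicate 3, 371 and 252. Without saline replicate 1 the counts were 290 and 165, without replicate 2 290 and 167, and without replicate 3 390 and 236. All 1176 probe sets kept their sign in each of these fits. Of the 71 called genes that are named, 24 kept their call in all 6 fits, among them Dbp, Scara5, Ube2w, Tmlhe, Sesn1, Spry4, Ugt2b38, Steap4, Nr3c1, Colec11, Cs, Pink1, Sdhc, Cbs, Preb, Mbd3, B4galnt1 and Prr13. The other 47 lost it in at least 1 fit, 5 of them in all 6, namely Blk, Pltp, Fabp1, Hal and Fas. Among other named genes, Nags and Cycs lost the call in 1 fit, C8a and Saa1 in 3, and Pmvk, Akr1d1, Mcm4, Ptprb, Alas2 and Uqcrfs1 in 4. Aqp1, Ecm1, Bckdha, Amacr and Cyc1 lost it in 5. The highest adjusted p among these 15 genes was 0.193, for Ecm1.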

How the data were processed

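The deposited table gives a linear intensity for each probe set on each array, made with MAS5 per the submitters' processing notes, which give no version. RNA came from frozen liver, per the labels' protocols. Arrays have no read depth, so precision is limited by their number. The 64 control probe sets were left out, the 18 arrays were quantile normalized, 16 was added and log2 was taken. All 45037 other probe sets entered 1 fit in limma 3.58.1 (R 4.3.3; lmFit, eBayes with an intensity trend), 1 coefficient for each of 6 groups, 12 residual degrees of freedom, two-sided, with Benjamini-Hochberg adjustment over all probe sets and a threshold of 0.05. SE denotes the fitted standard error of a log2 difference, with n = 3 arrays in each group.

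The platform annotation gave a single gene for 34945 probe sets, several for 932 and none for 9160, with 18193 genes in all. 34741 probe sets matched RefSeq by Entrez ID. The rule for named genes took the 15 largest rises and 15 largest falls, up to 6 called members of each list, the leading genes of the test between genotypes and 7 fixed genes, 79 in all. The comparison, the 40 lists and the rule were chosen with earlier results of these data known. The fit was run on simulated arrays with independent normal scatter of the fitted size. It recovered 67 of 100 changes of 1 in log2 and 100 of 100 changes of 2, with 10 false calls. The simulation had no difference in signal range, RNA quality or shared probes, so it does not test their effect on the calls. Alternatives covered the normalization, the number added, filters, the spread model, the replicate block, shared probes, the samples fitted and each array left out. Deviations from group means did not pair by replicate number (r of -0.011, 0.020 and 0.017).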

Additional observations from a re-analysis of the deposited data

Results flagged for a closer look

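Scara5 differed between the genotypes in its response, by 2.62 in log2 (wild type minus knockout, limma adjusted p 0.0468), since it rose in wild type and was lower with saline in the knockout. The signals were 30.9, 37.7 and 36.6 at 4 weeks and 215, 134 and 223 with saline in wild type, and 503, 567 and 496 and 371, 308 and 317 in the knockout. Without each of the 12 arrays in turn the difference lay between 2.49 and 2.83, with an adjusted p of 0.0256 to 0.29, and passed in 1 of the 12 fits. The second Scara5 probe set did not follow in wild type, with a difference of -0.11 (adjusted p 0.918). The cause was not tested.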

How the results depend on the processing

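The counts kept within 1.5 times of the reported 676 higher and 500 lower probe sets with cyclic loess, with 1 or 64 added in place of 16, with filters at the 40th and 60th percentiles, with the replicate block (637 and 441) and without the 6 DEN arrays, an alternative added after the data were seen. With the deposited values 908 were higher and 964 lower (48.5% higher against 57.5%), and with centred array medians 619 and 812 (43.3% higher). Without an intensity trend 200 were higher and 100 lower, with array quality weights 1021 and 878, with the 6 wild-type arrays fitted alone 364 and 201, and without shared probe sets in _x_at and _s_at 431 were higher. Leaving out each array in turn gave 290 to 652 higher and 165 to 545 lower. The knockout contrast, with 811 higher and 707 lower probe sets, gave 1124 lower with the deposited values, 512 and 1753 with centred medians, 393 and 247 without a trend, 1353 and 1259 with array weights, and 516 higher without shared probe sets. Leaving out 1 array gave 403 to 644 higher and 273 to 484 lower. The difference of responses, with 1 probe set, gave 0 in limma with cyclic loess, with 64 added, without a trend and with the replicate block, 3 without the 6 DEN arrays, and 0 to 1 without 1 array. In the 15 fits that called 0, 1395 to 2025 probe sets had an unadjusted p under 0.05. The replicate numbers did not pair the samples, and the block is given for completeness.

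With the deposited values and with centred medians, 7 named rises changed sign: C8a (-0.085 and -0.10), Acadm (-0.12 and -0.14), Fabp1 (-1.14 and -1.16), Fth1 (-0.65 and -0.67), Iigp1 (-0.059 and -0.077), Cycs (-0.28 and -0.30) and Cyc1 (-0.033 and -0.051). With cyclic loess Fabp1 (-0.47) and Fth1 (-0.13) did so. All are bright probe sets. Above a mean log2 signal of 12 the median difference was -0.47 with the deposited values and -0.01 after quantile normalization. Of the 71 called named genes, 20 kept their call under every setting run. The cause of these shifts was not tested.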

Other observations

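Protein folding and secretion genes moved in single members. The list counts in this section stand beside the 2.95% of all genes that rose and the 1.98% that fell. Dnajc3, a chaperone of the endoplasmic reticulum, rose by 0.60 (SE 0.13, adjusted p 0.0167), from 1889.7, 1735 and 1906 to 2869, 3011 and 2543, and a second of its probe sets rose by 0.52 (adjusted p 0.0272). Its other 3 probe sets differed by 0.20 (adjusted p 0.6), 0.21 (adjusted p 0.58) and 0.91 (adjusted p 0.0546). Dnajb1, a cytosolic partner of HSP70, fell by 0.58 (SE 0.13, adjusted p 0.019), from 364, 519.8 and 428 to 275, 284 and 294, while its other probe set differed by -0.11 (adjusted p 0.719). Each was the called member of its list, of 26 and 18 compared genes. Of 29 compared genes of complement and coagulation 1 rose, C8a, and 2 fell, with a median of -0.04. Proc, which encodes protein C, and F12 fell by 0.38 (adjusted p 0.012) and fell by 0.32 (adjusted p 0.019). Both signals lay lower on all 3 saline arrays, at 3813, 3679 and 3502 for Proc against 4419, 4948 and 5005 at 4 weeks.

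Detoxifying enzymes gave 2 falls among 36 genes. Mgst3, a microsomal glutathione transferase, fell by 0.54 (SE 0.10, adjusted p 0.00709), from 609, 639 and 640.1 to 382, 409 and 505, and its other, dim probe set differed by 0.56 (adjusted p 0.586). Gstt1 fell by 0.33 (SE 0.07, adjusted p 0.00901), from 4839, 5362 and 4869 to 3907, 3907 and 4196. Cyp3a13 was the called rise among 26 cytochrome P450 genes, 0.34 (adjusted p 0.0304), from 1922, 1696 and 1802 to 2255, 2340.5 and 2268. Among zonated genes Cdh1, which encodes E-cadherin of periportal hepatocytes, rose by 0.65 (adjusted p 0.0278) and Hal, a periportal histidine lyase, fell by 0.46 (adjusted p 0.0375). Gnas was the called member of 16 imprinted growth genes and fell by 0.32 (adjusted p 0.0171), with its dim probe sets at -0.41 (adjusted p 0.453) and -0.00 (adjusted p 0.998). Fas, a death receptor and p53 target, fell by 0.54 (adjusted p 0.0327) and lost its call in each of the 6 fits that left out 1 array.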
